A study of Mus musculus with 9 samples.

Results

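The genes described here are 10 enzymes of nucleotide synthesis and of the folate pathway that feeds it: Cad, Ctps, Ppat, Gart, Paics, Atic, Impdh2, Shmt2, Mthfd1 and Mthfd1l. They were picked by symbol. The annotation of the array lists 18 probes, out of 45281 in all, for 8 of the 10 symbols. No probe is listed for Impdh2 or Mthfd1l, so these are named only. Of the 18 probes, 15 were above noise on at least 3 of 9 arrays, and each of the 8 genes kept at least 1 probe.

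RNA came from B lymphocytes purified from spleens of C57BL/6 mice aged 8 weeks. Labels put 3 bead arrays in each of 3 groups: untreated, 1 h and 2 h of crosslinking of the antigen receptor with goat F(ab')2 against mouse IgM at 2.5 µg/ml. The series text states 3 h instead, and IL-4 at 5 ng/ml and CD40L at 200 ng/ml appear in the protocol with no mark of the arrays that got them, so whether the groups share these agents is not known. No label says whether replicates are separate mice or cultures, and p-values here cover only the spread between the arrays, which may be technical.

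A lymphocyte that leaves rest needs more purine and pyrimidine nucleotides for RNA, and later for DNA. The purine ring is built on ribose phosphate from amino acids and formyl groups carried by folate. The pyrimidine ring is built first and then joined to ribose phosphate. Serine gives its side-chain carbon to tetrahydrofolate, in mitochondria through Shmt2 and in the cytosol through Shmt1. Many of these enzyme genes are known targets of the transcription factor Myc, and several genes of serine and mitochondrial folate metabolism are known targets of Atf4.

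Before any comparison, the arrays have to be set against their labels. Over the 14640 features tested, 4 of the 9 arrays were nearest by Pearson correlation to an array of another label: untreated replicates 1 and 2, 1 h replicate 2 and 2 h replicate 2. Untreated replicate 2 was nearest to 2 h replicate 1 (r = 0.986 across genes), 2 h replicate 2 to untreated replicate 1 (0.994), and 1 h replicate 2 to untreated replicate 2 (0.978). Labels were kept as deposited, and results are also given without the 3 arrays labelled replicate 2. Of the 6 B cell markers listed, 4 were measured, and Cd74 had intensities of 20691 to 24650. Cd79b (2449.7 to 9360), Cd22 (282 to 1646) and Ms4a1 (109.0 to 391) varied more and were lowest on 1 h replicate 2. Of these, Cd22 and Ms4a1 were named after their values were seen. T cell markers (3 of 6 measured) summed to at most 96.5 on any array. Erythroid markers (3 of 6 measured) summed to 2381 on untreated replicate 3, 2673 on 1 h replicate 3 and 2616 on 2 h replicate 1, and to 70.8 to 330.2 on the other arrays. Hba-a1 alone had 2358, 2644 and 2600 on these 3 arrays, so the sums rest on it, and Slc4a1 had at most 15.8 on any array. Neutrophil markers (6 of 6 measured) were highest on the same 3 arrays, with sums of 5193, 4123.5 and 3762, against 721 to 1550.0 elsewhere. On those 3 arrays the mean centred log2 level of the 8 enzymes was -0.46, -0.34 and 0.36, so the enzymes were high on 1 of them and low on the rest; the part of these cells in the enzyme values was not tested.

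Most of the 8 measured enzymes were uneven within labels; Mthfd1 at 2 h was even, with an SD of 0.08 on the log2 scale. Values below are linear intensities as deposited, from the brightest probe of a gene, in the order of replicates 1, 2 and 3. For 7 of the 8 enzymes the 4 highest arrays were untreated replicate 2, 1 h replicate 2 and 2 h replicates 1 and 3, which holds for 10.5% of all features tested. For 5 of the 8 the highest array was 1 h replicate 2, against 18.3% of all features. Paics was the exception to the first pattern.

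Ctps, which turns UTP into CTP, had the widest range. Intensities were 223, 1466 and 209.6 on the untreated arrays, 248, 1389.7 and 359.9 after 1 h, and 1278, 218 and 1119 after 2 h of crosslinking. Untreated replicate 2 was thus above every array at 2 h, and 2 h replicate 2 lay between untreated replicates 1 and 3. The other Ctps probes gave the same division: one had 384, 47.4 and 277 at 2 h against 58.9, 385 and 43.4 untreated, and another had 705.5, 121 and 629 against 106, 838 and 104.

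Cad carries the opening activities of pyrimidine synthesis on a single polypeptide. Its intensities were 35.9, 98.5 and 48.2 on untreated arrays, 38.9, 218 and 63.7 after 1 h and 66.5, 34.1 and 65.9 after 2 h. Unlike Ctps, Cad was 2.22 times as high on 1 h replicate 2 as on the next array, while Ctps was 0.948 times its level on untreated replicate 2.

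Ppat catalyses the committed step of purine synthesis. It had 106, 291 and 98.1 on untreated arrays, 85.4, 326 and 85.6 after 1 h and 351, 101 and 349.7 after 2 h. The high values on 4 arrays lay close together, and the 5 low ones spanned 85.4 to 106. A second Ppat probe was above noise on 2 arrays and was not used.

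Gart, a multifunctional enzyme of the purine pathway that uses formyl-tetrahydrofolate, had 156, 311 and 132 on untreated arrays, 153, 703 and 181 after 1 h and 239, 154 and 213 after 2 h. Here 1 h replicate 2 stood 2.26 times above the next array. The other Gart probe had 447 there, against 78.4 to 181 on the remaining 8 arrays.

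Atic, which closes the purine ring to give IMP, spread least among the enzymes with clear signal. Its intensities were 118, 165 and 102 on untreated arrays, 110.1, 284.5 and 90.6 after 1 h and 172, 99.2 and 153 after 2 h. Of its other probes, 2 showed the same 4 arrays on top, and 1, above noise on 1 array, was not used. Their log2 differences at 2 h from untreated were 0.05 and -0.02, against 0.10 for the probe used.

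Paics, a bifunctional enzyme in the middle of the purine pathway, was dim: 23.0, 5.23 and 15.6 on untreated arrays, 8.03, 19.7 and 11 after 1 h and 38.1, 12.9 and 29.5 after 2 h. Its single probe was above noise (a threshold with a median of 6.44) on 8 of 9 arrays and below it on untreated replicate 2, where the other 7 enzymes were high. At this signal, differences of a few units cannot be told from noise.

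Shmt2, the mitochondrial serine hydroxymethyltransferase, showed the strongest excess on a single array. It had 104.5, 165 and 110.0 on untreated arrays, 87.4, 707 and 90.2 after 1 h and 161, 90.7 and 166 after 2 h. The value on 1 h replicate 2 was 4.25 times the next one. A second, dimmer Shmt2 probe had 199.9 on that array, against 14.5 to 54.8 elsewhere.

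Mthfd1 encodes the cytosolic enzyme that interconverts one-carbon units on folate. It had 65.1, 134 and 62.9 on untreated arrays, 90.6, 340.0 and 89.2 after 1 h and 107, 93.9 and 108.5 after 2 h. Again 1 h replicate 2 was apart, 2.53 times the next array. Of its other probes, 1 was above noise on all 9 arrays with 80.4 on 1 h replicate 2 and 8.04 to 31.3 elsewhere, and 1 was above noise on 0 arrays. The measured pair disagreed at 2 h: the log2 difference from untreated was 0.19 with the brighter probe and -0.16 with the dimmer.

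**Figure D1:**
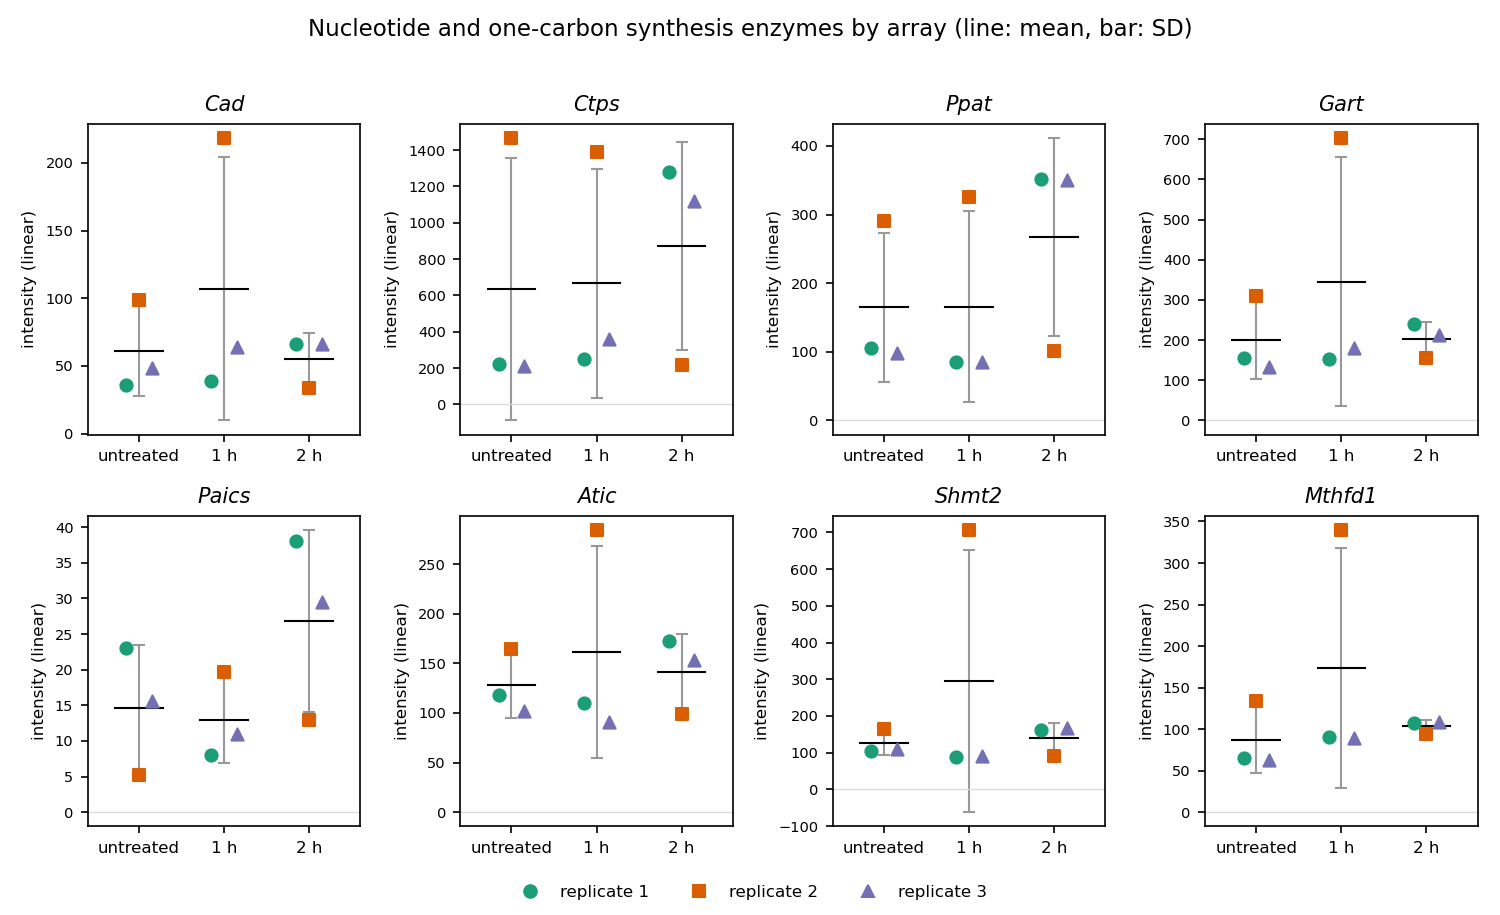
Linear intensity of the brightest probe of each of the 8 measured enzymes (vertical axes) on each array, by deposited label (horizontal axes); symbols mark replicate numbers, black lines the mean and grey bars the SD of the 3 arrays. Replicate 2 (squares) is apart from replicates 1 and 3 in each group for Ctps and Ppat, above them untreated and at 1 h and below them at 2 h; Shmt2 reaches 707 on 1 h replicate 2 and at most 166 on the other arrays.

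The profiles therefore fell into more than 1 shape. With every profile centred on its own mean, the closest pairs of enzymes were Cad with Gart and Gart with Mthfd1, each with a root-mean-square difference of 0.16 on the log2 scale, and Cad with Mthfd1 (0.17). The most distant pairs were Ctps with Paics (1.06), Ctps with Mthfd1 (0.84) and Ctps with Atic (0.82). Profiles were not scaled, so this distance reflects the size of a profile as well as its shape. The SD over the 9 arrays was 1.17 for Ctps, 0.53 for Mthfd1, 0.40 for Atic and 0.22 for Paics. Ctps and Ppat had similar levels on 1 h replicate 2 and untreated replicate 2, with ratios of 0.948 and 1.12. The same ratio was 1.73 for Atic, 2.22 for Cad, 2.26 for Gart, 2.53 for Mthfd1 and 4.29 for Shmt2. The mean centred log2 level of the 8 enzymes was -0.41, 0.38 and -0.46 on untreated arrays, -0.45, 1.11 and -0.34 after 1 h and 0.36, -0.45 and 0.29 after 2 h. Of the 4 measured B cell markers, 3 were lowest on 1 h replicate 2: Cd79b, which encodes part of the B cell receptor complex, had 2449.7 there and 3791 to 9360 elsewhere, and Cd22 and Ms4a1, both named after their values were seen, had 282 and 109.0 there, against 492 to 1646 and 208 to 391 elsewhere. Cd74 was not low there, with 24477 against 20691 to 24650. Their part in the enzyme values was not tested.

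**Figure D2:**
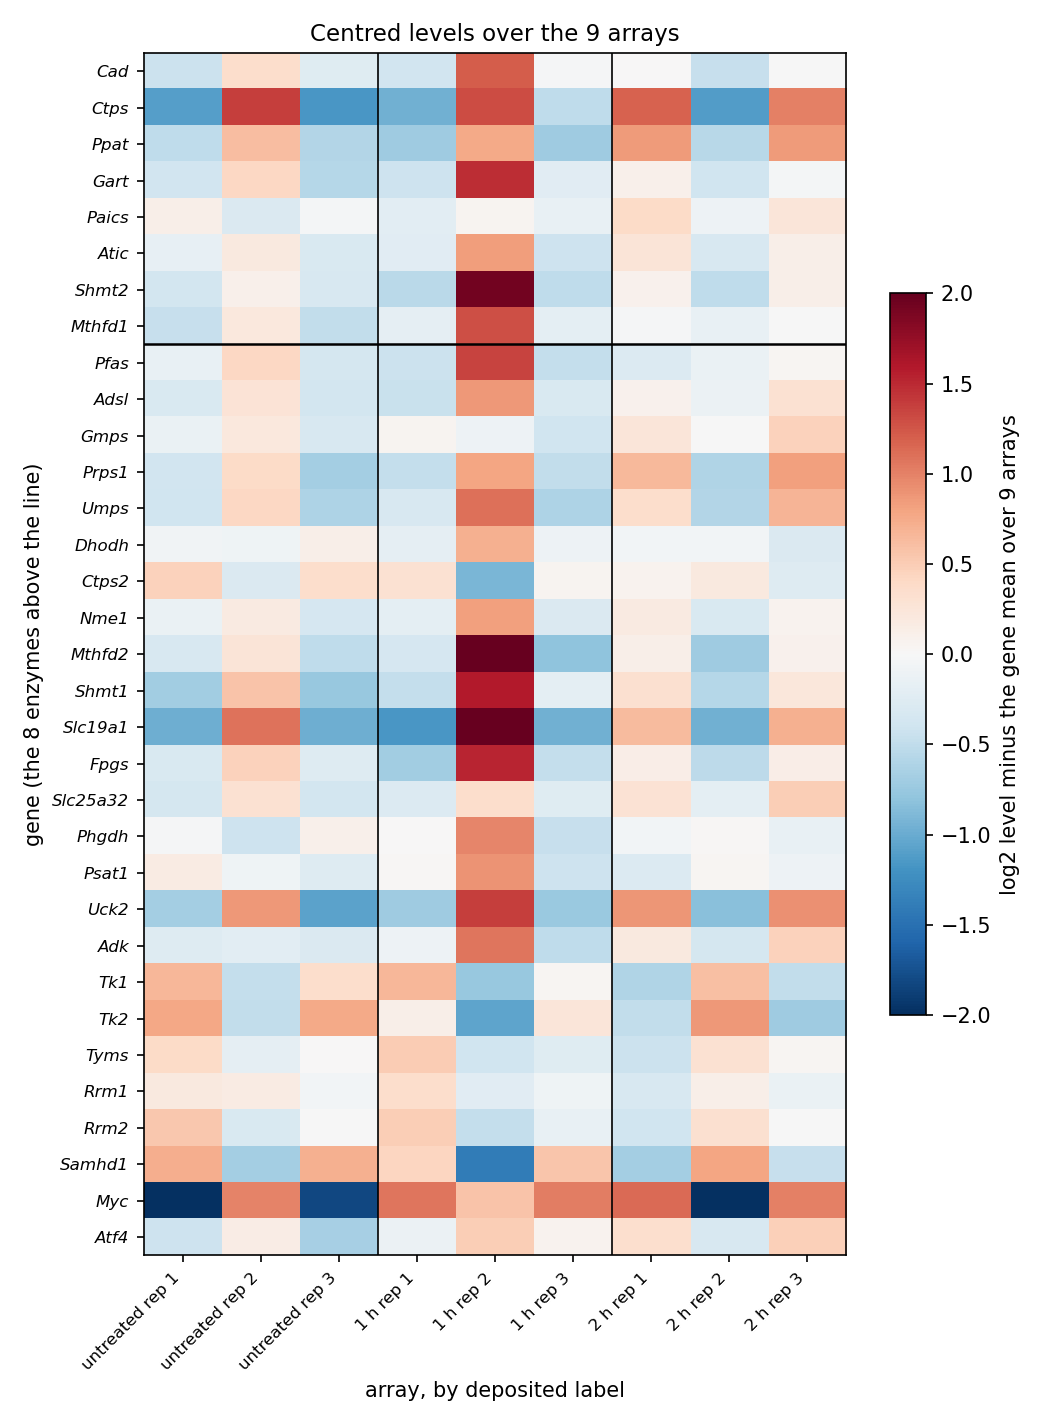
Log2 level of each gene minus its mean over the 9 arrays (colour), with arrays by deposited label across and genes down; the 8 enzymes are above the line. Untreated replicate 2, 1 h replicate 2 and 2 h replicates 1 and 3 are red for Ctps and Ppat, and 1 h replicate 2 is the reddest array for Shmt2, whose intensity there was 707.

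The comparison of 1 h with untreated asks whether transcripts of these enzymes had moved within the first hour. On log2 of the intensity plus 50, Mthfd1 had a difference of 0.56 ± 0.39, Shmt2 0.49 ± 0.60, Gart 0.46 ± 0.49 and Cad 0.37 ± 0.40 (SE, n = 3 arrays per group). Ctps had 0.24 ± 0.92, Atic 0.15 ± 0.32, Paics -0.03 ± 0.16 and Ppat -0.06 ± 0.55. By limma's moderated test with Benjamini-Hochberg adjustment over all 14640 features, 0 of the 8 enzymes passed in either direction (adjusted p = 1 for each), 0 had an unadjusted p under 0.05, and 0% of all features were called, with 190 features (1.3%) at an unadjusted p under 0.05. The median difference over the 8 enzymes was 0.30, against -0.005 over all features. Apart from that of Paics, these differences were lowest without 1 h replicate 2: then the median was -0.18, and the differences were 0.06 for Mthfd1, -0.33 for Shmt2, -0.14 for Gart, -0.10 for Cad, -0.44 for Ctps, -0.23 for Atic and -0.55 for Ppat. On 1 h replicates 1 and 3, Ppat (85.4 and 85.6) and Shmt2 (87.4 and 90.2) were lower than on any other array. For Shmt2 the margin was small, with 90.7 on 2 h replicate 2. Its dimmer probe had 21.7 and 14.5 on these 1 h arrays and 21.3 on 2 h replicate 2. In 0 of the 8 enzymes did the 1 h arrays lie wholly above or wholly below the untreated ones, against 2.64% of all features above and 2.38% below.

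The comparison of 2 h with untreated asks the same after a further hour. The largest differences were those of Ctps (0.65 ± 0.92, adjusted p = 0.911) and Ppat (0.54 ± 0.55, adjusted p = 0.908), by limma with n = 3 arrays per group. Paics had 0.25 ± 0.16, Mthfd1 0.19 ± 0.39, Atic 0.10 ± 0.32, Shmt2 0.09 ± 0.60, Gart 0.07 ± 0.49 and Cad -0.05 ± 0.40, with adjusted p between 0.908 and 0.986. Thus 0 of the 8 enzymes passed and 0 had an unadjusted p under 0.05. Over all features, 0% were called, with 727 (4.97%) at an unadjusted p under 0.05. The median over the enzymes was 0.15 (all features: -0.007). The 2 h and untreated arrays overlapped for all 8 enzymes, where 6.8% of all features lay wholly higher and 4.37% wholly lower at 2 h. Leaving out 1 array moved Ctps between 0.21 and 1.49 and Ppat between 0.30 and 1.01, with the highest values without untreated replicate 2 for Ctps and without 2 h replicate 2 for Ppat.

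Between 2 h and 1 h the enzymes divided. Ppat (0.60 ± 0.55), Ctps (0.41 ± 0.92) and Paics (0.28 ± 0.16) had positive differences. Cad (-0.42 ± 0.40), Gart (-0.40 ± 0.49), Shmt2 (-0.40 ± 0.60), Mthfd1 (-0.36 ± 0.39) and Atic (-0.05 ± 0.32) had negative ones. By limma 0 of the 8 passed, with adjusted p between 0.828 for Paics and 0.999 for Atic, and 0 had an unadjusted p under 0.05, while over all features 0% were called and 1001 (6.84%) had an unadjusted p under 0.05. In 0 of the 8 did the groups separate (6.93% of all features higher and 4.43% lower at 2 h). The negative values rest on 1 h replicate 2: without it they were 0.05 for Cad, 0.20 for Gart, 0.42 for Shmt2, 0.13 for Mthfd1 and 0.33 for Atic. The share of variation that lay between labels was 2.9% of the sum of squares over the 9 arrays for Atic, 5.9% for Ctps, 8.4% for Shmt2, 11.6% for Gart, 14.3% for Cad, 15.2% for Ppat, 21.1% for Mthfd1 and 36.2% for Paics, beside a median of 19.1% over all features. The comparisons share arrays and are not independent of each other.

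Without the 3 arrays labelled replicate 2, the remaining untreated and 2 h arrays lay close together for Ctps and Ppat. The remaining 1 h arrays were less even for Ctps (248 and 359.9) and Cad (38.9 and 63.7). Ctps had 1278 and 1119 at 2 h, against 223 and 209.6 untreated, and Ppat had 351 and 349.7 against 106 and 98.1. The log2 differences at 2 h were then 2.23 ± 0.15 for Ctps, 1.40 ± 0.11 for Ppat, 0.51 ± 0.13 for Gart, 0.47 ± 0.11 for Mthfd1, 0.44 ± 0.11 for Shmt2, 0.41 ± 0.13 for Atic, 0.34 ± 0.14 for Cad and 0.27 ± 0.12 for Paics (SE, n = 2 arrays per group). Limma called 6 of the 8 higher at 2 h, all but Cad and Paics, where 15.7% of all features were called higher and 19% lower. The call for Mthfd1 rests on its brighter probe: on these arrays the dimmer one had 16.3 and 9.27 at 2 h, against 11.8 and 13.6 untreated. At 1 h limma called 0 of the 8, with 3.94% of all features called higher and 3.39% lower. Between 2 h and 1 h it called 5 of the 8 higher (Ctps, Ppat, Shmt2, Atic and Paics), where 12.1% of all features were called higher and 13.7% lower. Leaving out arrays because their values go against their labels narrows the spread within labels, and these p-values are therefore too small and do not test the treatment. Without only untreated replicate 2 and 2 h replicate 2, limma called 0 of the 8 enzymes in either direction at 1 h (0.492% of all features higher, 0.184% lower), at 2 h (3.78% and 5.19%) and between the times (0% and 0%), with Ctps at 2.23 ± 0.66 (adjusted p = 0.0872) at 2 h. With all 9 arrays weighted by how well each fits the mean of its label, limma called Ctps and Ppat higher at 2 h, 2 of the 8 enzymes, where 15% of all features were called higher and 18.5% lower. It then called 0 of the 8 at 1 h (0.00683% higher, 0% lower) and between the times (0.137% and 0.0342%).

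**Figure D3:**
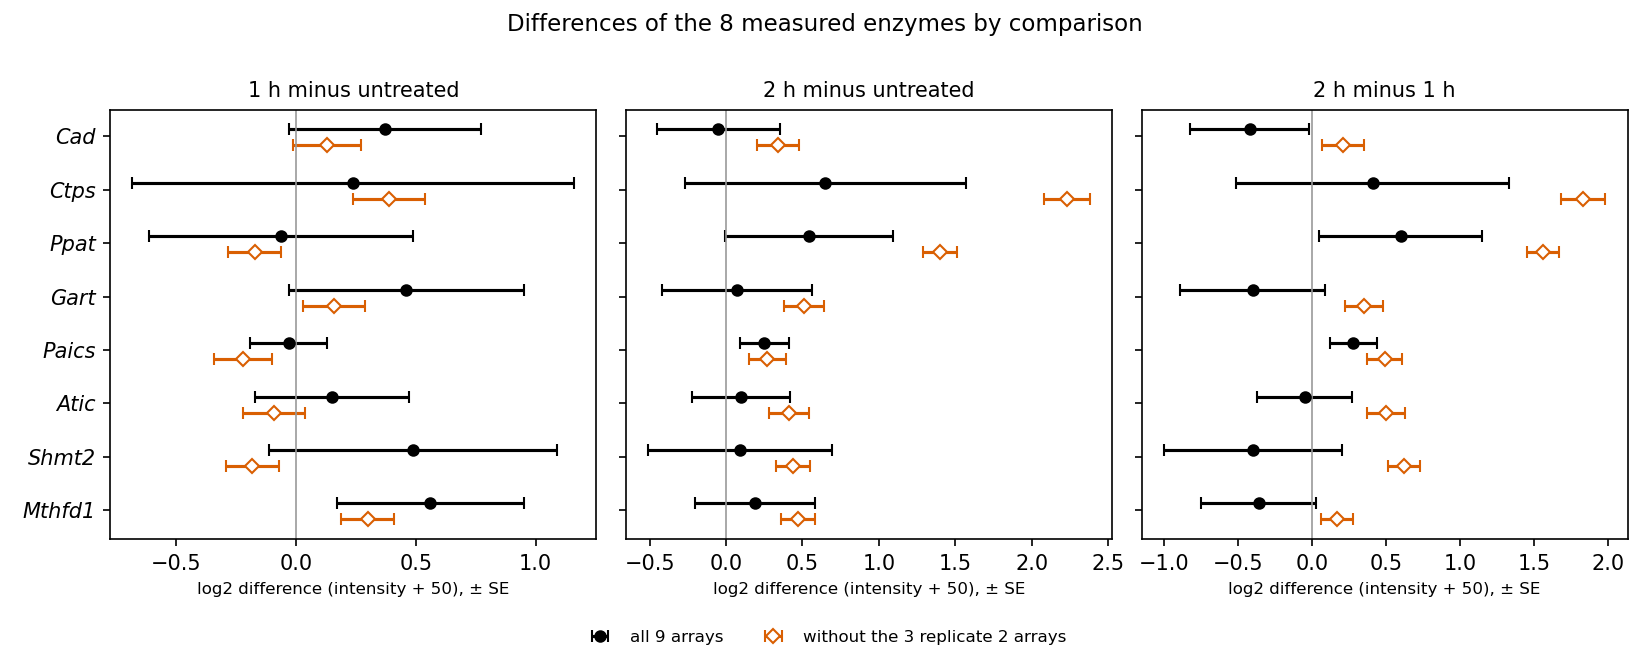
Log2 difference of intensity plus 50 (horizontal axes) for each enzyme (rows) in the 3 comparisons; filled circles are all 9 arrays and open diamonds the 6 arrays without replicate 2, bars the SE from limma. At 2 h minus untreated, Ctps is at 0.65 ± 0.92 with all arrays and at 2.23 ± 0.15 without replicate 2; between 2 h and 1 h, Cad, Gart, Shmt2, Mthfd1 and Atic lie on opposite sides of 0 in the 9 arrays and in the 6.

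The promoter windows of these genes were read from RefSeq on GRCm38.p6, from 250 bases before each gene's start to 50 bases from the start on. All 10 symbols had at least 1 window, 11 in all, of which Ctps has 2. Of 3 motifs searched on both strands, CACGTG, an E-box that Myc and Max are known to bind, was in the windows of Atic, Paics and Impdh2 (3 of 11, against 7.15% of all 32851 windows). The core of the known binding sequence of nuclear respiratory factor Nrf1, GCGC, then any base, then TGCGC, was in those of Ctps, Ppat and Shmt2, in Ppat only as the reverse complement (3 of 11, against 4.6% of all windows). TGATGNAA, a core of the element that Atf4 binds, was in 0 of 11 (3.97% of all windows). A match is a run of letters in a window and not a measured site. The windows of the measured genes with a match are shown because they include Ctps, Ppat and Shmt2, and the facing pair Ppat and Paics. Levels on 1 h replicate 2 and untreated replicate 2 were close for Ctps and Ppat (ratios of 0.948 and 1.12). For Shmt2, with the same motif, the ratio was 4.29. A link between motif and level was not tested. Capitals mark the motif.
Ctps, chr4:120570227-120570526, minus strand: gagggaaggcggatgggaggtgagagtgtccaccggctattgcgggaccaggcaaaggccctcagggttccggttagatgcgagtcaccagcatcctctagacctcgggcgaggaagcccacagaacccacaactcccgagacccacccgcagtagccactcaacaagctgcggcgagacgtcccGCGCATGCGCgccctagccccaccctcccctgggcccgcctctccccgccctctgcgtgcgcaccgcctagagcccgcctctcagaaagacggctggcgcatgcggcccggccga
Ppat, chr5:76951529-76951828, minus strand: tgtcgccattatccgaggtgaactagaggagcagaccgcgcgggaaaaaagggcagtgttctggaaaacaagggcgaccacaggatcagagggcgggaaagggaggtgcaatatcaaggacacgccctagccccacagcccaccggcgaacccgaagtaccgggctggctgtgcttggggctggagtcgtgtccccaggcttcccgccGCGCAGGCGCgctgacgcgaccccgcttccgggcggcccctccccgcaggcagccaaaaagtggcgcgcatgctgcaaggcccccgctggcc
Paics, chr5:76951052-76951351, plus strand: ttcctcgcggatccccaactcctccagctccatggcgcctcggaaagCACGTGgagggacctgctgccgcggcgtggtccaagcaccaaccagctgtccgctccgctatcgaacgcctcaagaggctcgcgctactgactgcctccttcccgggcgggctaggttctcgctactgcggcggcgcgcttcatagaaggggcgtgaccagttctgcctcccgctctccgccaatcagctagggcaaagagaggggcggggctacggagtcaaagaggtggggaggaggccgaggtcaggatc
Shmt2, chr10:127522395-127522694, minus strand: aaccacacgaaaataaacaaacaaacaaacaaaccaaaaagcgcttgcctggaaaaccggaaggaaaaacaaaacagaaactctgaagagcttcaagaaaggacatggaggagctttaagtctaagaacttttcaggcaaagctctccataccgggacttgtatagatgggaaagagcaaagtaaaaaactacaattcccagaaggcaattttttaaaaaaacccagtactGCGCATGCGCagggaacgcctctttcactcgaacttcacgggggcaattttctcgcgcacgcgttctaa
Atic, chr1:71556906-71557205, plus strand: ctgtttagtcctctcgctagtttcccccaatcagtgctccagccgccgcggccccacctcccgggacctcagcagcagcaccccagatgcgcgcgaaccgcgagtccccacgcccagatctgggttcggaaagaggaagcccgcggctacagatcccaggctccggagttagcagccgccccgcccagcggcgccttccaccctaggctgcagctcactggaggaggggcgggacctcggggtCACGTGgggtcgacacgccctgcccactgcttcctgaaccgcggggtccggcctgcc
In Ctps the capitals lie 65 to 56 bases before the start (-65 to -56), in Ppat at -42 to -33, in Shmt2 at -19 to -10, in Paics at -203 to -198 and in Atic at -7 to -2. Ppat and Paics are read in opposite directions from starts 276 bases apart. Of the 4 arrays on which Ppat was high, Paics was among its own 4 highest on 1 h replicate 2 and 2 h replicates 1 and 3 (19.7, 38.1 and 29.5), and it was below noise on untreated replicate 2 (5.23).

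Other genes of these pathways were taken from lists of enzymes by pathway. In each of the 3 comparisons, limma called 0 genes in either direction on any list, over 9 measured purine genes of 10 listed, 10 pyrimidine genes of 10, 11 further folate genes of 18, 5 genes of serine and methionine metabolism of 8 and 11 salvage genes of 16. The median differences at 1 h were 0.07 for the purine list, 0.11 for the pyrimidine list, 0.08 for the folate list, 0.24 for serine and methionine and 0.01 for salvage (all features: -0.005). At 2 h they were 0.08, -0.05, 0.08, -0.05 and 0.01 in the same order (all features: -0.007). Before adjustment, p was under 0.05 for 0 genes of these lists at 1 h (1.3% of all features), for 1 at 2 h (Ggh; 4.97%) and for 3 between 2 h and 1 h (Ggh, Aldh1l2 and Uck1; 6.84%), named after their values were seen. Ggh and Aldh1l2 were dim, with at most 8.91 and 18.7. Shmt1 is on both the folate and the serine list.

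Among folate genes, Mthfd2, the mitochondrial enzyme downstream of Shmt2, had 544, 838 and 472 on untreated arrays, 535, 3377 and 374 after 1 h and 753, 401 and 735 after 2 h. The value on 1 h replicate 2 was 4.03 times the next, close to the 4.25 of Shmt2. The folylpolyglutamate synthase gene Fpgs, which traps folates in cells, had 741 on 1 h replicate 2 and 120 to 327 elsewhere. Shmt1 and the folate carrier gene Slc19a1, both chosen after their values were seen, had 564 and 1206 on that array, against 70.1 to 252 and 41.4 to 384 on the others. Slc25a32, which carries folate into mitochondria, had 70.8 there and 66.7, 65.0 and 82.6 on untreated replicate 2 and 2 h replicates 1 and 3, a shape closer to that of Ctps. The 4 highest arrays were those named for the enzymes in 7 of the 11 folate genes, 4 of the 9 purine, 3 of the 10 pyrimidine, 1 of the 5 serine and methionine and 3 of the 11 salvage genes, beside 10.5% of all features. In the serine list, Phgdh, the first enzyme of serine synthesis, had 575 on 1 h replicate 2 and 181 to 294 elsewhere, and Psat1, the next enzyme, had 1194.5 there and 451 to 692.5 elsewhere. For neither gene did untreated replicate 2 (188 and 575) stand above untreated replicate 1 (264.5 and 692.5). Ahcy, which hydrolyses S-adenosylhomocysteine, had 691 on 1 h replicate 2, within its range of 464 to 806 on the others.

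Among purine genes, Pfas, chosen after its values were seen, had 656 on 1 h replicate 2 and 148 to 318 elsewhere, and Guk1, which phosphorylates GMP, had 1372 there and 537 to 685 elsewhere. Adssl1, an adenylosuccinate synthetase gene, went the other way, with 794 there and 993 to 1739.9 elsewhere. Among pyrimidine genes, Nme1 and Nme2, nucleoside diphosphate kinases, had 8383 and 6919 on 1 h replicate 2 and at most 5368 and 4987 on the other arrays. Umps, which completes UMP, had 336, 153 and 436 at 2 h against 180.4, 357 and 148.5 untreated, and Ctps2, the paralogue of Ctps, had 244, 273 and 185 at 2 h against 338, 181 and 308 untreated. Both were chosen after their values were seen. Ctps2 was lowest on 1 h replicate 2 (99.5), where Ctps had 1389.7. Uck2, a uridine and cytidine kinase of salvage chosen likewise, had 394.5, 1254 and 292 on untreated arrays, 386, 1807 and 376 after 1 h and 1260.5, 349.7 and 1303 after 2 h.

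**Figure D4:**
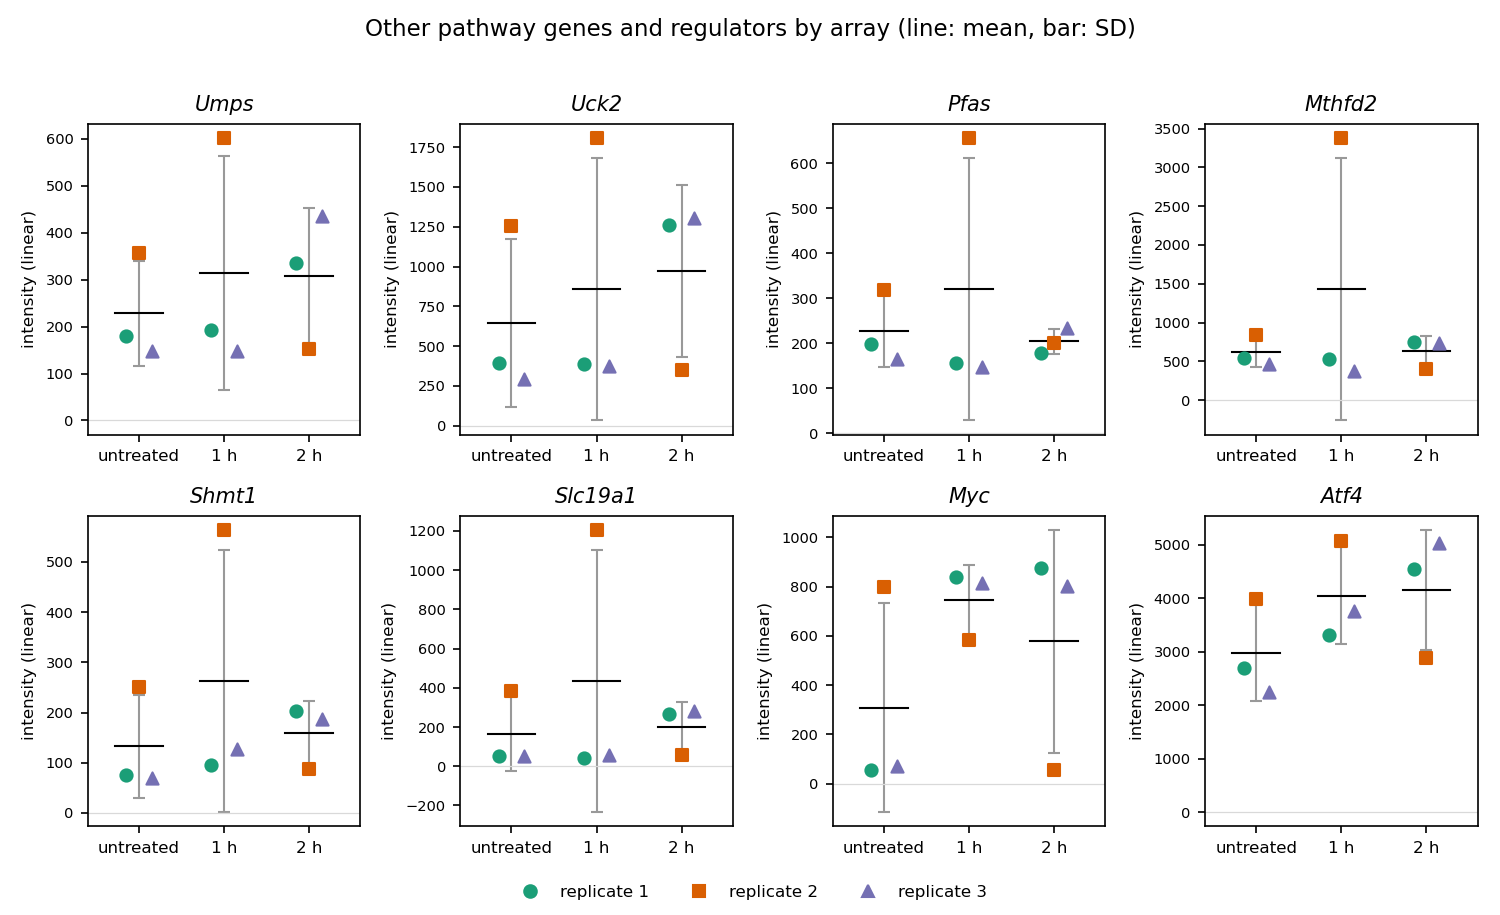
Linear intensity (vertical axes) of 6 further pathway genes and of the regulators Myc and Atf4 on each array, by deposited label (horizontal axes); symbols mark replicate numbers, black lines the mean and grey bars the SD of the 3 arrays. Mthfd2 and Slc19a1 reach 3377 and 1206 on 1 h replicate 2, and Myc lies between 583 and 840.5 on the 3 arrays at 1 h, where Umps and Uck2 are high on replicate 2 only.

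Myc had 57.0, 798 and 70.0 on untreated arrays, 840.5, 583 and 816 after 1 h and 876, 56.4 and 801 after 2 h. It was high on the 4 arrays where 7 of the 8 enzymes were highest and low on untreated replicates 1 and 3 and 2 h replicate 2, where those enzymes were low too. However, Mthfd1 on 2 h replicate 2 (93.9) was near its levels on the other 2 h arrays (107 and 108.5). On 1 h replicates 1 and 3 the levels parted: Myc was high, while Ppat (85.4 and 85.6) and Shmt2 (87.4 and 90.2) were below their levels on untreated replicates 1 and 3, and Ctps (248 and 359.9) was above its own there (223 and 209.6) but far from the 1278 and 1119 of 2 h replicates 1 and 3. On 1 h replicate 2, with less Myc signal than on replicates 1 and 3 of that label, Shmt2, Gart, Mthfd1, Cad and Atic had their highest levels. Atf4 had 2706, 3988 and 2247 on untreated arrays, 3316, 5075 and 3769.6 after 1 h and 4557.5, 2887 and 5029 after 2 h. Its 4 highest arrays were the same as those of the 7 enzymes, and its level on 1 h replicate 2 was 1.01 times that on 2 h replicate 3. The 4 highest arrays of Myc were instead 1 h replicates 1 and 3 and 2 h replicates 1 and 3. Whether Myc or Atf4 acts on the enzymes here was not tested. Mxd4, of the Max network, had 370.4 on 1 h replicate 2 and 688 to 3559 elsewhere.

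Outside the 10 enzymes, the genes with the profile most like the mean of the 8 enzymes over the 9 arrays were Ruvbl2 (root-mean-square difference 0.07 on the log2 scale, with an SD of 0.56 of the mean profile itself), Setd6 (0.087), Pusl1 (0.09), Eif5a (0.091), Fkbp1a (0.091), Alg9 (0.092), Aatf (0.094) and Slc35a4 (0.094). Ruvbl2, which encodes a helicase-like ATPase, had 154, 268 and 133 on untreated arrays, 137, 495 and 133 after 1 h and 299, 127 and 264 after 2 h. For single enzymes, the nearest genes were Trmt61a (0.166) and St6galnac4 (0.185) for Ctps, Knop1 (0.084) and Fitm2 (0.117) for Ppat, and Set (0.102) and Ptprs (0.103) for Cad. They were Xpot (0.087) and Slc1a5 (0.121) for Gart, Nme1 (0.053), of the pyrimidine list, and Gpr89 (0.063) for Atic, Aldh18a1 and Smyd2 (0.147 each) for Shmt2, and Rai14 (0.112) and Akap1 (0.118) for Mthfd1. The nearest to Paics were Olfr66 (0.096) and Acta2 (0.102), on dim signal throughout. The tRNA modification gene Trmt61a had 247, 1752 and 286 on untreated arrays, 347, 2244 and 535 after 1 h and 1497, 252 and 1398.5 after 2 h, on the same 4 arrays as Ctps. Xpot, an exporter of tRNA, had 1236.5 on 1 h replicate 2 and 255 to 571 elsewhere.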

How the data were processed

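Biotin-labelled RNA was read on 9 Illumina bead arrays, and the authors deposited linear intensity values for 45281 probes. The sources used here name no software for this step. Judged from the values, the deposited intensities were background-subtracted (31.8% were below 0) and normalized between arrays. A deposited table of non-normalized signals has 9 columns whose names match no single sample, and these were not used. The noise threshold of an array was the upper 0.05 tail of its negative values mirrored around 0. Probes above it on at least 3 arrays were kept (20983). For each gene the brightest kept probe was used, giving 14640 features. Of probes with 1 gene symbol (34885; 18 had several and 10378 none), 34807 matched RefSeq's GRCm38 genes. Group means of log2 (intensity + 50) over all 9 arrays were compared with limma 3.58.1 in R 4.3.3 (two-sided, Benjamini-Hochberg over all features, called under 0.05), with 6 residual degrees of freedom. Scripts were tested on simulated data. The number of arrays and the spread within labels limit precision. No pair of arrays was identical (0 pairs).

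The genes and lists were chosen with earlier results of these data known. Named were the 10 enzymes, per list the genes past the threshold or otherwise the 2 with the highest mean, plus Myc, Mthfd2, Phgdh, Tyms and Rrm2, and the genes of smallest root-mean-square difference (8 for the mean profile, 2 per enzyme). Others are marked as chosen after their values were seen. Alternatives covered the offset, normalization, filter, probe choice, a replicate block, the variance model and the arrays in the fit.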

Additional observations from a re-analysis of the deposited data

How the results depend on the processing

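Counts of called features were 0 in all 3 comparisons and in the test of any change. They stayed 0 with each single array left out, with a replicate block, with quantile normalization and with offsets of 16 and 100. The same held with either filter, with the mean of probes and with a variance trend. With only the 6 arrays of the groups compared, the 3 comparisons stayed at 0, and the test of any change was not made. The counts became 1, 4898, 25 and 3462 (1 h, 2 h, 2 h against 1 h, any change) with array weights. Without the 3 arrays labelled replicate 2 they became 1073, 5088, 3765 and 5136. Without untreated replicate 2 and 2 h replicate 2, a choice made after seeing the data, they were 99, 1314, 0 and 535. Weights and such choices of arrays come from the same values, so their p-values are too small. With array weights, Ctps (1.92, adjusted p = 0.016) and Ppat (1.21, adjusted p = 0.0134) were called at 2 h by limma. The medians of the enzymes, 0.30, 0.15 and -0.21 (1 h, 2 h, 2 h against 1 h), were 0.02, 0.46 and 0.50 without the 3 arrays labelled replicate 2, 0.12, 0.39 and 0.37 with array weights, and 0.62, 0.46 and -0.04 without untreated replicate 2 and 2 h replicate 2. Directions turned with array weights for Atic at 1 h (-0.04), Cad at 2 h (0.31) and, between 2 h and 1 h, Cad (0.05), Gart (0.17), Atic (0.38), Shmt2 (0.36) and Mthfd1 (0.03). Without the 3 arrays labelled replicate 2 they turned for Atic (-0.09) and Shmt2 (-0.18) at 1 h, Cad at 2 h (0.34) and, between 2 h and 1 h, Cad (0.21), Gart (0.35), Atic (0.50), Shmt2 (0.62) and Mthfd1 (0.17). Without untreated replicate 2 and 2 h replicate 2 they turned for Ppat at 1 h (0.32), Cad at 2 h (0.34) and Atic between 2 h and 1 h (0.12). Without the 3 arrays labelled replicate 2, limma called Ctps (2.23), Ppat (1.40), Gart (0.51), Mthfd1 (0.47), Shmt2 (0.44) and Atic (0.41) at 2 h and Ctps (1.83), Ppat (1.56), Shmt2 (0.62), Atic (0.50) and Paics (0.49) between the times, and Paics at 1 h was -0.22. The cause was not tested.

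With 1 array left out, the medians of the enzymes ranged from -0.18 to 0.69 at 1 h, 0.05 to 0.30 at 2 h and -0.43 to 0.34 between the times. Log2 differences at 1 h ranged as follows: Cad -0.10 to 0.70, Ctps -0.44 to 1.07, Ppat -0.55 to 0.32, Gart -0.14 to 0.81, Paics -0.14 to 0.06, Atic -0.23 to 0.39, Shmt2 -0.33 to 0.90, Mthfd1 0.06 to 0.81. At 2 h they were Cad -0.21 to 0.18, Ctps 0.21 to 1.49, Ppat 0.30 to 1.01, Gart -0.13 to 0.36, Paics 0.14 to 0.38, Atic -0.02 to 0.27, Shmt2 -0.02 to 0.29, Mthfd1 0.07 to 0.43. Between 2 h and 1 h they were Cad -0.74 to 0.05, Ctps -0.04 to 1.15, Ppat 0.36 to 1.09, Gart -0.74 to 0.20, Paics 0.17 to 0.42, Atic -0.29 to 0.33, Shmt2 -0.81 to 0.42, Mthfd1 -0.61 to 0.13. The smallest adjusted p among these 216 values was 0.295, by limma. Replicate numbers gave no uniform pairing of the arrays. The correlation of same-numbered arrays' deviations from their group means ran from 0.24 to 0.57 between untreated and 1 h. Between 2 h and either it ran from -0.79 to -0.34, and 2 of 9 arrays correlated best with their own number. Arrays nearest to another label shape these deviations, so the values cannot decide whether equal numbers mark pairs. The replicate block left 0 called features and the enzymes' medians at 0.30, 0.15 and -0.21. Dim signal limits Paics most.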

Other observations

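Genes of deoxynucleotide supply differed in their order of arrays. Samhd1, which breaks down deoxynucleotides, had 652, 215 and 645 on untreated arrays, 522, 109.9 and 568 after 1 h and 213, 684.5 and 256 after 2 h, so it was low on the 4 arrays where Ctps was high. Tk1, the S-phase thymidine kinase gene, and Tk2, the mitochondrial one, both chosen after their values were seen, were lowest on 1 h replicate 2, at 79.7 and 154. Dctd, dCMP deaminase, and Dtymk, thymidylate kinase, named likewise, were highest there, at 186 and 528, against 29.1 to 60.8 and 278 to 418 elsewhere. Of the 4 measured genes of ribonucleotide reduction and deoxynucleotide breakdown, limma called 0 in each comparison, with 0 at an unadjusted p under 0.05. Their differences were all negative at 2 h (4 of 4) and at 1 h (4 of 4). Of all 14640 features, 7528 had a negative difference at 2 h and 7527 at 1 h. Rrm2, Rrm2b and Samhd1 were lowest on 1 h replicate 2, at 40.0, 61.3 and 109.9. Elsewhere they had 45.2 to 133.2, 71.6 to 157.9 and 213 to 684.5. Rrm1 had 212.1 on that array and 195.3 to 341.7 elsewhere. The negative signs of Rrm1, Rrm2 and Samhd1 at 1 h rest on 1 h replicate 2, and that of Rrm2b does not. This was read from the intensities, without a fit. Rrm1 had 341.7 and 238.4 on 1 h replicates 1 and 3, against 299.5, 291.5 and 242.8 untreated. Rrm2 had 127.5 and 63.5 there, against 133.2, 51.5 and 75.4. Rrm2b had 115.5 and 107.2, against 157.9, 80.8 and 138.5. Rrm1, the large subunit of ribonucleotide reductase, had -0.21 ± 0.18 at 2 h, Rrm2, the small subunit, -0.11 ± 0.31, and Tyms, thymidylate synthase, -0.10 ± 0.28 (SE, n = 3 arrays per group). In salvage, Hprt and Aprt, which recover purine bases, had at most 1909 and 2651, both on 1 h replicate 2, against 1238 to 1745 and 1193 to 2289.8 elsewhere.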
